A study of Mus musculus with 27 samples.

Results

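Muscle of wild-type (WT) mice was compared between day 4 (D4) and day 7 (D7) after cardiotoxin, the interval in which newly formed muscle fibres begin to mature. Cardiotoxin (CTX), a cobra toxin that destroys muscle fibres and is followed by their regeneration, had been injected into the gastrocnemius of male C57BL/6J mice, a muscle that the deposited design text calls thigh muscle. Of the 27 libraries of the series, the 3 WT D4 and the 3 WT D7 libraries were used, described as biological triplicates. Every mouse had been injured, so the comparison is between days and holds no uninjured group, and the age of these mice was not given in the sources used here. Members were the genes with at least 1 TPM (a relative transcript abundance that corrects for gene length and sums to the same value in each library) in at least 3 of these 6 libraries, which 14275 of 55852 entries met. Of these, 12631 reached 1 TPM in all 6 libraries, 150 did so in D4 libraries only and 70 in D7 libraries only. The most similar step that shared no library was that of *Gsdme* knockout (KO) mice between the same days, 3 libraries each, labelled KO in the sample titles and knockdown in the genotype field.

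After such an injury, monocytes and neutrophils enter the muscle and macrophages clear the debris. Satellite cells, the stem cells of muscle, leave quiescence, divide under control of *Myod1* and *Myf5*, withdraw from the cell cycle with *Myog* and fuse through the membrane proteins *Mymk* and *Mymx*. The young myofibres first make embryonic forms of myosin, troponin and the acetylcholine receptor, then replace them with adult forms while contact with the nerve and mitochondrial content are restored. Fibro-adipogenic progenitors, the mesenchymal cells of muscle, lay down the transient matrix that surrounds these fibres.

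The defining markers of muscle were present on both days. Creatine kinase *Ckm* stood at 3163, 6485 and 7887 TPM on D4 and 9788, 10676 and 10112 TPM on D7, and the satellite cell marker *Pax7*, the macrophage marker *Adgre1*, the fibroblast marker *Pdgfra* and the endothelial marker *Pecam1* were each above 1 TPM in all 6 libraries. *Ly6g*, the defining neutrophil marker, was listed at 0 in all 6 libraries, and the T cell markers *Cd3d* and *Cd3e* did not reach the filter. Pearson's r across genes was from 0.936 to 0.976 between D4 libraries and from 0.977 to 0.983 between D7 libraries. D4 replicate 1 stood apart, with 0.68 TPM of *Myh2* and 0.92 TPM of *Myl2* where the other D4 libraries had 340.2 and 378 TPM of *Myh2* and 641 and 256 TPM of *Myl2*, and list medians are therefore also given without it, where the median over all genes was -0.18. The share of all TPM held by the 50 most abundant genes was 31.2 ± 5.10% on D4 and 45.2 ± 2.87% on D7 (SD, n = 3, exact two-sided permutation p = 0.1, the smallest that 3 against 3 can give), and since TPM values are shares, genes of constant abundance then read lower. Summed TPM of the 31 adult fast fibre genes was from 61389 to 122956 on D4 and from 156170.0 to 170868 on D7, and that of the 35 phagocytic macrophage genes from 13830.0 to 26674 and from 6531 to 9209. In bulk muscle, fewer cells of a type and less RNA per cell cannot be told apart, and the part of these shifts in the result of any 1 gene was not tested.

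Between D4 and D7, 375 genes rose (2.63% of those tested) and 1566 fell (11.0%), by limma on log2(TPM + 1) with Benjamini-Hochberg adjusted p under 0.05. Before adjustment, 5328 genes had p under 0.05, of which 987 were higher and 4341 lower on D7. The median difference over all genes was -0.26, and after median-of-ratios scaling, which centres it near 0, the calls were 879 higher (6.16%) and 972 lower (6.81%). Of the called genes, 361 of the 375 higher and 964 of the 1566 lower were also called after that scaling, so the excess of falls over rises depended on the scale. With the spread shared among all 8 injured groups, named the shared spread from here on, the counts were 502 higher (3.52%) and 1573 lower (11.0%), and 304 of the 375 higher and 991 of the 1566 lower genes were called in both fits. Without D4 replicate 1 they were 535 (3.75%) and 1776 (12.4%). The number of calls depended on other single libraries as well, with 12 higher and 15 lower without D4 replicate 2, 46 and 266 without D7 replicate 1, 2 and 6 without D7 replicate 3, and 0 in limma without D7 replicate 2, where 659 genes were higher and 2531 lower at an unadjusted p under 0.05. All 375 and all 1566 called genes kept their sign in each of the 6 fits that left out 1 library. They had been picked on these same libraries, so this count is no independent support. When each library was left out with the spread shared among the 8 groups, a check chosen after seeing the data, 72 of the higher and 98 of the lower genes were called in all 6 fits, and these 72 and 74 of the 98 were also called after median-of-ratios scaling.

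Without regard to the test, the 3 D7 libraries lay above the 3 D4 libraries for 1380 genes (9.67% of those tested) and below them for 5071 (35.5%). Since the median difference over all genes was below 0, most genes tested were negative. Counts of negative or positive genes in a list are to be read beside that.

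**Figure D1:**
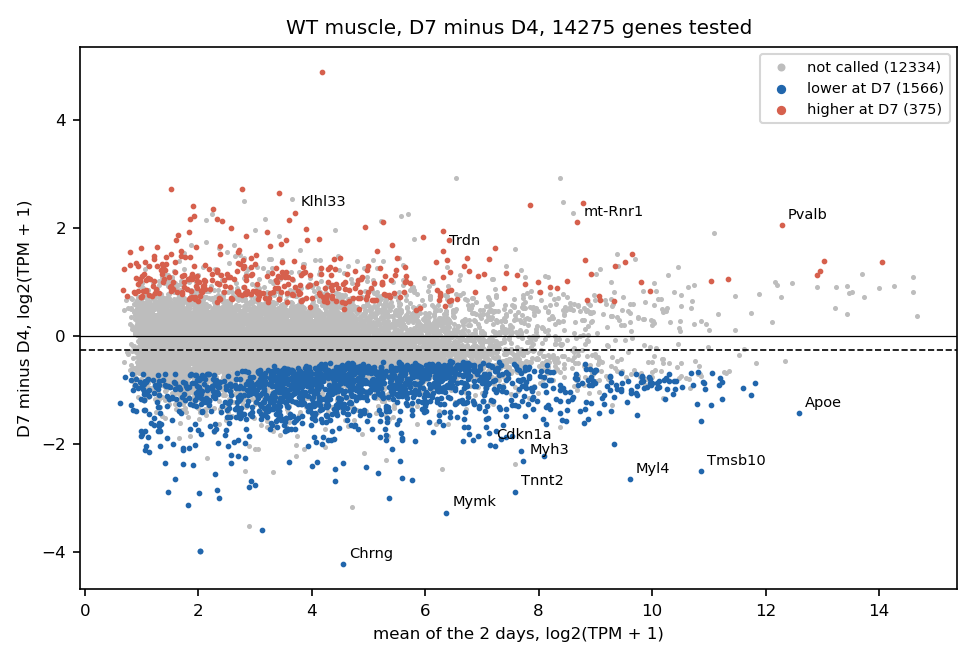
Each point is 1 of the 14275 genes tested in WT muscle, with the mean level of both days on the horizontal axis and D7 minus D4 on the vertical axis, both as log2(TPM + 1). Coloured points are the 375 genes that rose and the 1566 that fell, and the cloud sits below 0 by the median of -0.26.

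Genes of the neuromuscular contact were among those with the widest differences. The muscle acetylcholine receptor holds the gamma subunit, encoded by *Chrng*, in fetal and uninnervated fibres, and the epsilon subunit, encoded by *Chrne*, in its place at the adult synapse. *Chrng* stood at 144, 61.6 and 60.6 TPM on D4 and 12.2, 2.08 and 1.06 TPM on D7 (log2 difference -4.23, SE 0.68, adjusted p = 0.0252). All 3 D7 libraries were below every D4 library, with replicate 1 the highest on both days. *Chrne*, by contrast, was at 3.79, 7.63 and 8.4 TPM on D4 and 14.2, 16.5 and 13.4 TPM on D7 and rose (log2 difference 1.10, SE 0.27, adjusted p = 0.0424). The alpha subunit gene *Chrna1* fell from 207, 106 and 93.2 TPM to 32.9, 16.6 and 12.7 TPM (log2 difference -2.67, SE 0.40, adjusted p = 0.0246), and the delta subunit gene *Chrnd* from 53.2, 29.6 and 27.3 TPM to 11.4, 5.16 and 3.75 TPM (log2 difference -2.34, SE 0.39, adjusted p = 0.0267). The beta subunit gene *Chrnb1* was at 70.8, 80.5 and 64.4 TPM on D4 and 73.2, 50.5 and 48.9 TPM on D7 and did not pass the test (log2 difference -0.34, adjusted p = 0.235). Of the 3 subunits shared by both receptor forms, 2 thus fell and 1 was not called, and the epsilon gene was the 1 of the 5 that was higher on D7. Of the 20 synaptic and neural contact genes tested, 1 rose and 6 fell (5 after median-of-ratios scaling), with a median of -0.36 beside -0.26 over all genes, or -0.50 without D4 replicate 1. Among those that fell were *Rapsn*, which anchors the receptor under the nerve ending (log2 difference -1.05, adjusted p = 0.0319), *Dok7*, an adaptor of the agrin receptor kinase (log2 difference -0.90, adjusted p = 0.0336), and the adhesion gene *Ncam1* (log2 difference -2.55, adjusted p = 0.0246). The kinase itself, *Musk*, had 10.4, 7.87 and 7.31 TPM on D4 and 7.55, 4.8 and 4.53 TPM on D7 (log2 difference -0.54, adjusted p = 0.134), with overlapping libraries.

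The regions upstream of these receptor genes are shown because members of the *Myod1* family bind the E-box letters CAGCTG. The 250 bases before the RefSeq start of each gene (GRCm38.p6) follow, 5′ to 3′ on the strand of the gene, with CAGCTG in capitals. *Chrng* lies at chr1:87205561-87205810 (+ strand), *Chrna1* at chr2:73580339-73580588 (- strand) and *Chrne* at chr11:70619195-70619444 (- strand).
Chrng: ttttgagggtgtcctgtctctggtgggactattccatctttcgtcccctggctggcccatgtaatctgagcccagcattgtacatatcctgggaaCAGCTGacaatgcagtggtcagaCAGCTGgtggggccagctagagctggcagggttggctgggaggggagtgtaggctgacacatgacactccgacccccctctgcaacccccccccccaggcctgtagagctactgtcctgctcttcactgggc
Chrna1: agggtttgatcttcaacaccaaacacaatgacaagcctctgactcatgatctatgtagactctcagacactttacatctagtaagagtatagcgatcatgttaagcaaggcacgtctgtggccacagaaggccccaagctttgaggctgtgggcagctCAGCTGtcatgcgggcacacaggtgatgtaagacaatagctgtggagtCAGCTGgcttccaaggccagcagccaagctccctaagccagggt
Chrne: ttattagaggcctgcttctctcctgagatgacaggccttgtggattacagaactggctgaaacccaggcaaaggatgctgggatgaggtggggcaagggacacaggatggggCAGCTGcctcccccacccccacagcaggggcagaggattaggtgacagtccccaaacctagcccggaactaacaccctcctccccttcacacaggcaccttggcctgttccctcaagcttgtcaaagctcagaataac
The capitals begin 155 and 132 bases before the start in *Chrng*, 92 and 44 in *Chrna1* and 138 in *Chrne*. CAGCTG reads the same on both strands, and it was present in 13% of all 32851 promoters of that table and in 33.3% of the 21 promoters found for 17 of the 20 embryonic and neonatal contractile genes. That list includes *Chrng* itself. The gene that rose and the 2 that fell all carried CAGCTG, so the letters did not separate the directions.

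Of 24 satellite cell and myogenic genes, 12 fell and 1 rose, with a median of -0.70, or -0.81 without D4 replicate 1. *Mymk*, the fusogen myomaker, fell from 353, 177 and 191 TPM to 50.3, 19.8 and 11.6 TPM (log2 difference -3.27, SE 0.50, adjusted p = 0.0246). Its partner myomixer, *Mymx*, fell from 217, 68.2 and 63 TPM to 38, 10.7 and 8 TPM (log2 difference -2.62, SE 0.64, adjusted p = 0.0418). For both genes D4 replicate 1 was the highest library and the days did not overlap. The determination factor *Myod1* was at 169, 81.1 and 85.4 TPM on D4 and 36.9, 23 and 22 TPM on D7 (log2 difference -1.95, SE 0.32, adjusted p = 0.0265), and *Myog*, which drives differentiation, at 334, 173 and 169 TPM on D4 and 125, 66 and 47.2 TPM on D7 (log2 difference -1.54, SE 0.40, adjusted p = 0.0455). The fall of *Myog* was smaller on the log2 scale, and its call was lost after median-of-ratios scaling (adjusted p = 0.0505). *Pax7*, which marks satellite cells, was even among replicates, at 5.9, 5.84 and 6.05 TPM on D4 and 3.24, 2.78 and 2.23 TPM on D7 (log2 difference -0.89, SE 0.18, adjusted p = 0.0313). Its companion *Myf5* was at 5.5, 4.88 and 2.65 TPM on D4 and 5.35, 2.01 and 2.27 TPM on D7, overlapped and did not pass (log2 difference -0.39, adjusted p = 0.44). Others that fell included *Hes6* (-1.80), *Cdh15* (-1.59), *Itga7* (-1.25) and *Heyl* (-0.99), given as log2 differences, where *Cdh15* and *Itga7* encode adhesion proteins of the satellite cell and its niche. The member that rose was *Mef2c*, a transcription factor of the contractile programme, at 67.1, 88.8 and 65.2 TPM on D4 and 132, 117 and 108 TPM on D7 (log2 difference 0.69, SE 0.17, adjusted p = 0.0418). *Myf6*, the regulator typical of mature fibres, was at 50.8, 108 and 85.6 TPM on D4 and 82.6, 76.8 and 57.9 TPM on D7 (log2 difference -0.12, adjusted p = 0.787), with overlap. With the shared spread the counts were 11 lower and 1 higher, and *Mymx* and *Myog* were not called (adjusted p = 0.0603 and 0.0816).

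Of 20 embryonic and neonatal contractile genes, 11 fell and 0 rose, and the list also holds *Chrng*, counted above among the synaptic genes. The median was -1.77, or -1.86 without D4 replicate 1, 10 were called lower after median-of-ratios scaling and 6 with the shared spread. *Myh3*, embryonic myosin heavy chain, stood at 523, 471 and 397 TPM on D4 and 116, 109 and 61.2 TPM on D7 (log2 difference -2.31, SE 0.26, adjusted p = 0.0185). The neonatal form *Myh8* was at 219, 352 and 275 TPM on D4 and 136, 71.1 and 30.6 TPM on D7 (log2 difference -2.03, SE 0.48, adjusted p = 0.0409). Both spread on D7, the neonatal form more so, and replicate 1 was the highest D7 library in each. The call of *Myh8* was lost after median-of-ratios scaling (adjusted p = 0.0618). *Myl4*, the embryonic essential light chain, fell from 1679, 1785 and 1988 TPM to 548, 302 and 144 TPM (log2 difference -2.65, SE 0.43, adjusted p = 0.0263), and *Tnnt2*, the cardiac and fetal troponin T, from 695, 424 and 313 TPM to 143, 55.4 and 27.4 TPM (log2 difference -2.88, SE 0.56, adjusted p = 0.031). The slow troponins *Tnni1* and *Tnnc1* and the light chain *Myl6b* fell too, by 2.01, 1.61 and 1.92 on the log2 scale. The cardiac actin gene *Actc1*, which is also expressed in young fibres, was at 2669.9, 3522 and 3882 TPM on D4 and 2678, 2856 and 2252 TPM on D7 and did not pass (log2 difference -0.36, adjusted p = 0.283). Slow light chain *Myl2* was not called (log2 difference 2.49, adjusted p = 0.367) and rested on D4 replicate 1, since its difference was -0.09 without that library. The calls of *Myh3*, *Myh8*, *Myl6b*, *Tnni1* and *Tnnc1* were lost with the shared spread (adjusted p from 0.0635 to 0.372).

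Scaling a library multiplies both forms of a pair alike. It moves their log2 ratio only through the added 1 where a form is low, as *Chrng* was on D7. For that reason 18 pairs were set side by side, chosen after the values of these genes had been seen. The first form was an early, slow or widely expressed one and the second an adult muscle form. Slow forms such as *Tnni1*, *Tnnc1* and *Casq2* were set against fast ones. The ratio was lower on D7 in all 18, and in 17 the D7 libraries were all below the D4 libraries, *Pgam1* over *Pgam2* being the exception. The log2 ratio of *Chrng* to *Chrne* was 4.92, 2.86 and 2.71 on D4 and -0.20, -2.51 and -2.81 on D7, a change of -5.34. That of *Myh3* to the fast adult myosin *Myh4* went from a mean of -2.23 to -5.27, and that of *Myl4* to *Myl1* from -2.27 to -6.07. *Tnnt2* over the fast troponin T gene *Tnnt3* went from -4.26 to -7.96. The same direction held for metabolic forms. *Cox6a1* over *Cox6a2*, subunits of cytochrome c oxidase with the latter found in heart and skeletal muscle, went from 0.10 ± 1.25 to -1.96 ± 0.26 (SD, n = 3). *Cox8a* over *Cox8b* went from -0.44 ± 1.33 to -2.71 ± 0.43. *Ckb* over *Ckm*, brain and muscle creatine kinase, went from -4.88 to -7.47, and the elongation factors *Eef1a1* over *Eef1a2* from 3.58 to 1.49. The first form was called lower in 15 of the 18 pairs and the second called higher in 1, that of *Chrne*. Most ratios thus moved with a called fall of the first form and an uncalled difference of the second.

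**Figure D2:**
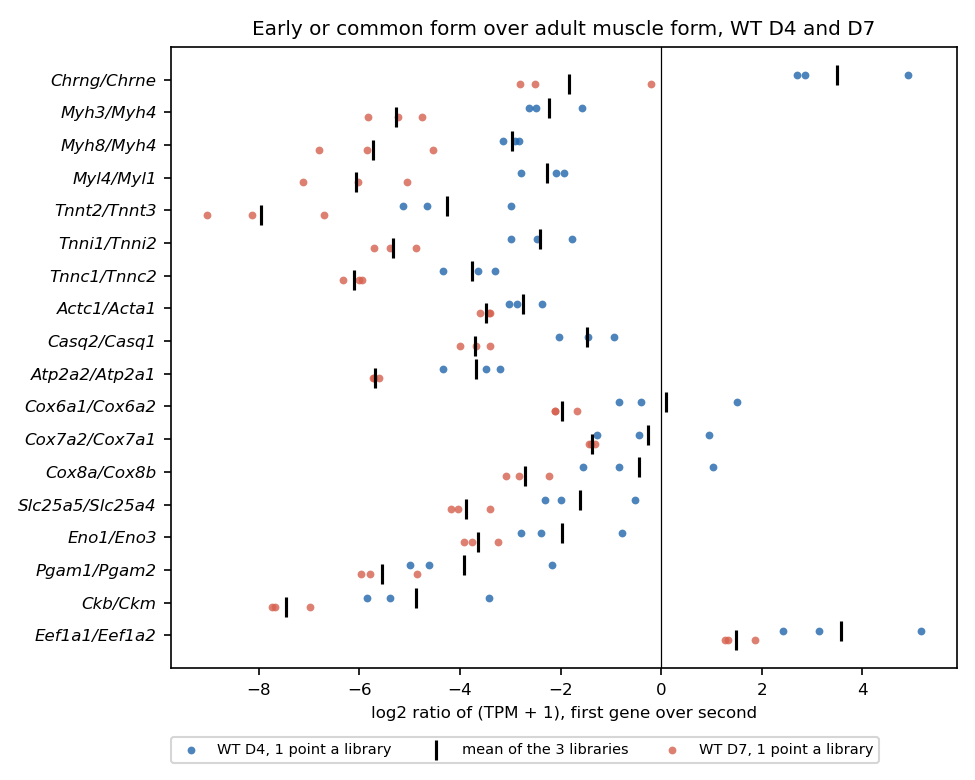
For 18 pairs of genes, the horizontal axis gives the log2 ratio of (TPM + 1) of the first gene over the second, with 1 point a library for D4 and D7 and a black bar at the mean of the 3. The D7 points lie to the left of the D4 points in 17 pairs, *Pgam1*/*Pgam2* being the one with overlap.

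Adult fast contractile genes were abundant on both days and few passed the test. Of 31 tested, 2 rose (6.45%, beside 2.63% of all genes) and 0 fell, the median was 0.67, and 28 of the 31 were positive. Without D4 replicate 1, the library low in many of them, the median was 0.41 with 9 called higher and 2 lower, and 5 were higher with the shared spread. *Mybpc2*, fast myosin binding protein C, rose from 279, 552 and 576 TPM to 1053, 1285 and 1127 TPM (log2 difference 1.36, SE 0.29, adjusted p = 0.0349). *Mylk4*, a myosin light chain kinase, rose from 16.6, 19.9 and 22.6 TPM to 53.1, 58.7 and 70 TPM (log2 difference 1.57, SE 0.17, adjusted p = 0.0181). The D4 libraries differed little in *Mylk4*, in contrast to *Mybpc2*. Among abundant members, *Mylpf* and *Myl1* lay above the D4 libraries on D7 without passing. *Mylpf*, the fast regulatory light chain, was at 11424, 22571 and 22978 TPM on D4 and 29004, 35509 and 31824 TPM on D7 (log2 difference 0.82, adjusted p = 0.161), and *Myl1* at 6426, 12349.9 and 8521 TPM on D4 and 18345, 19696 and 20022 TPM on D7 (log2 difference 1.14, adjusted p = 0.0551). Skeletal actin *Acta1* was at 13697, 28614 and 28473 TPM on D4 and 28798, 30292 and 27492 TPM on D7, with overlap (log2 difference 0.37, adjusted p = 0.517). The 3 largest fast myosins had *Myh4* (0.74, adjusted p = 0.0894), *Myh1* (1.42, adjusted p = 0.128) and *Myh2* (2.92, adjusted p = 0.289), where the *Myh2* difference was 0.34 without D4 replicate 1. In the 21 promoters found for 20 of these genes, CAGCTG was present in 33.3% and the CArG box, bound by serum response factor, in 23.8%, against 13% and 1.47% of all promoters. Among promoters of all genes called higher the shares were 12.3% and 0.904%, beside 12.4% and 1.2% for genes tested.

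Of 23 genes for calcium handling and excitation 6 rose and 1 fell, at a median of 0.48 (0.22 without D4 replicate 1, with 7 higher and 2 lower). *Pvalb*, parvalbumin, which buffers calcium in fast fibres, went from 1538, 2900.3 and 3030.0 TPM to 8915, 10897 and 10063 TPM (log2 difference 2.06, SE 0.31, adjusted p = 0.0246). The D7 libraries were close to each other and far above the highest D4 library. *Trdn*, triadin of the calcium release complex, was at 37.3, 68.8 and 32.4 TPM on D4 and 123, 151 and 125 TPM on D7 (log2 difference 1.58, SE 0.28, adjusted p = 0.0276). The chloride channel gene *Clcn1* (log2 difference 1.22, adjusted p = 0.0435), the junctional gene *Jph1* (log2 difference 0.82, adjusted p = 0.0349) and the calcium channel subunit *Cacna2d1* (log2 difference 0.99, adjusted p = 0.0276) rose with them, although *Clcn1* was not called after median-of-ratios scaling (adjusted p = 0.0518). The member that fell was *Casq2*, the cardiac and slow calsequestrin, at 415, 556 and 359 TPM on D4 and 221, 196 and 133 TPM on D7 (log2 difference -1.28, SE 0.25, adjusted p = 0.0305), and it was not called with the shared spread (adjusted p = 0.11).

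Lists of energy metabolism had medians above that of all genes, with calls for a minority of their genes. Of the 13 mitochondrially encoded protein genes, 5 rose and 0 fell, all 13 were positive and the median was 1.03 (0.78 without D4 replicate 1). *mt-Cytb* was at 3522, 5792 and 6501 TPM on D4 and 10490.1, 11263 and 11644 TPM on D7 (log2 difference 1.12, SE 0.30, adjusted p = 0.0488), and *mt-Atp6* at 71.6, 391 and 165 TPM on D4 and 944, 898 and 933 TPM on D7 (log2 difference 2.46, SE 0.53, adjusted p = 0.0349). The days did not overlap in either gene, and *mt-Atp6* spread widely on D4. Together the mitochondrial genes held 5.37 ± 1.59% of TPM on D4 and 10.6 ± 1.02% on D7 (SD, n = 3, exact two-sided permutation p = 0.1). The ribosomal RNAs of the mitochondrion, *mt-Rnr1* and *mt-Rnr2*, had adjusted p of 0.00374, the lowest of the comparison. *mt-Rnr2* was at 78.1, 115 and 104 TPM on D4 and 561, 500.3 and 535 TPM on D7 (log2 difference 2.43, SE 0.18) and *mt-Rnr1* at 181, 192 and 217 TPM on D4 and 931, 805 and 808 TPM on D7 (2.10, SE 0.15). The libraries were made with an mRNA kit, and reads of mitochondrial genes, *mt-Atp6* among them, may be shared with nuclear copies. The levels of all mitochondrial genes named here, and their share of TPM, are therefore uncertain. Of 78 nuclear respiratory chain subunits, 6 rose (7.69%, beside 2.63% of all genes) and 2 fell (2.56%, beside 11.0%). Of these subunits 73 were positive and the median was 0.43 (0.25 without D4 replicate 1), whereas 19 rose with the shared spread. *Cox6c* went from 615, 766 and 521 TPM to 1105, 1231 and 1426 TPM (log2 difference 0.99, SE 0.20, adjusted p = 0.0336), and cytochrome c, *Cycs*, from 48.8, 71.6 and 51.8 TPM to 86.7, 99.3 and 113 TPM (log2 difference 0.80, SE 0.19, adjusted p = 0.0408). The 2 that fell, *Cox6a1* (-1.22) and *Cox8a* (-1.13), are the widely expressed forms described above.

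In the list of citric acid cycle and fatty acid oxidation genes, which also holds *Lpl* and *Cd36*, 5 of 45 rose and 0 fell (median 0.31, 0.10 without D4 replicate 1). *Sucla2*, a subunit of succinyl-CoA ligase, was at 102, 147 and 95.8 TPM on D4 and 241, 261 and 261 TPM on D7 (log2 difference 1.16, SE 0.19, adjusted p = 0.0255). *Lpl*, lipoprotein lipase, was at 64.2, 61.2 and 67.3 TPM on D4 and 117, 115 and 118 TPM on D7 (log2 difference 0.85, SE 0.12, adjusted p = 0.0246) and was even within each day. *Cd36*, the fatty acid transporter, rose by less (log2 difference 0.65, adjusted p = 0.0448). Among 26 glycolytic and glycogen genes 5 rose and 0 fell (median 0.47, 0.17 without D4 replicate 1), and those that rose serve glycogen turnover, glycerol phosphate and nucleotide balance. *Ppp1r3a*, the subunit that targets a phosphatase to glycogen, was at 3.06, 6.21 and 4.12 TPM on D4 and 14.9, 17.2 and 15.6 TPM on D7 (log2 difference 1.67, SE 0.23, adjusted p = 0.0246). With it rose *Ppp1r3c* (1.37), *Phkg1* (1.30), *Gpd1* (1.13) and *Ampd1* (0.82), given as log2 differences. The calls of *Ppp1r3c* and *Gpd1* were lost after median-of-ratios scaling (adjusted p = 0.0501 and 0.0586). *Lpl*, *Cd36*, *Ppp1r3c* and *Ampd1* were not called with the shared spread (adjusted p from 0.0774 to 0.144), which called 5 of the 45 and 3 of the 26 higher.

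Most proliferation genes were negative, as were most of all genes tested, while the share called lower was no larger than the 11.0% of all genes. Of 60 mitosis genes tested 6 fell (10%) and 0 rose, 59 were negative and the median was -0.80, or -0.38 without D4 replicate 1. Of 44 DNA replication genes 2 fell (4.55%) and 0 rose, and 43 were negative (median -0.79, or -0.44 without that library). *Cdc20*, an activator of the anaphase-promoting complex, was at 44, 17.6 and 19.8 TPM on D4 and 12.3, 7.15 and 6.88 TPM on D7 (log2 difference -1.45, SE 0.37, adjusted p = 0.0442). *Ccnb2*, cyclin B2, was at 33.7, 14.5 and 14 TPM on D4 and 8.72, 7.48 and 6.19 TPM on D7 (log2 difference -1.26, SE 0.33, adjusted p = 0.0478). In each the first D4 library exceeded the other D4 libraries more than these exceeded the D7 libraries. *Plk1*, *Cdca3*, *Cenpa* and *Racgap1* were the other mitosis genes that fell, with log2 differences from -1.65 to -1.23. *Mki67*, the common proliferation marker, was at 12.6, 3.58 and 2.42 TPM on D4 and 5.34, 3.54 and 2.84 TPM on D7 and did not pass (log2 difference -0.31, adjusted p = 0.665). The 2 replication genes were *Cdt1* (-1.31) and *Rfc5* (-1.10), a licensing factor and a clamp loader subunit. Among 20 inhibitors of the cell cycle 4 fell (20%) and 1 rose (5%), with a median of -0.47, or -0.37 without D4 replicate 1. *Cdkn1a*, p21, which halts the cycle as myoblasts differentiate, was at 420.3, 217 and 210.2 TPM on D4 and 100.4, 59.7 and 45.7 TPM on D7 (log2 difference -2.02, SE 0.36, adjusted p = 0.0285). *Ccng1*, cyclin G1, was at 75.3, 103 and 70.6 TPM on D4 and 159.7, 178 and 195 TPM on D7 and rose (log2 difference 1.10, SE 0.18, adjusted p = 0.0265). Called lower with the shared spread were 2 mitosis genes, 4 replication genes and 1 inhibitor, and *Cdc20*, *Ccnb2*, *Cdca3* and *Racgap1* were not among them (adjusted p from 0.0592 to 0.122).

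Mitotic genes are known for CCAAT boxes and the cell cycle homology letters TTTGAA, and the 250 bases before the start of *Cdc20*, at chr4:118437344-118437593 (- strand), and *Ccnb2*, at chr9:70421555-70421804 (- strand), are shown for that reason, with matches of these letters, or of their reverse complement, in capitals.
Cdc20: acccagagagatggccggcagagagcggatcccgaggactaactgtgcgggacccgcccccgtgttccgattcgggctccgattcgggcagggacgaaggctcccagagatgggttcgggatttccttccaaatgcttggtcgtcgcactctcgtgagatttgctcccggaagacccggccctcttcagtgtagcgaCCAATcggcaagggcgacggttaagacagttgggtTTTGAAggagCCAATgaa
Ccnb2: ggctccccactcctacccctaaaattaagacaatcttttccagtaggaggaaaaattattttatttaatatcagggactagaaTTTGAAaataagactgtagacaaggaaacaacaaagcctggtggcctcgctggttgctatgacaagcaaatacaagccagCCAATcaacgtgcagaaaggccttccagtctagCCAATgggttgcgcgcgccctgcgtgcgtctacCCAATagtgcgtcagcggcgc
In *Cdc20* the CCAAT matches begin 53 and 8 bases before the start and the TTTGAA match at 18, and in *Ccnb2* they begin at 87, 54 and 21 with TTTGAA at 167. The same region of *Cenpa* held 2 CCAAT matches and that of *Racgap1* 1, each with 0 matches of TTTGAA, and neither is printed. Of the 52 promoters found for 49 mitosis genes, 65.4% held CCAAT and 38.5% TTTGAA, against 33.8% and 16% of all promoters. For the 43 promoters of 35 replication genes the shares were 62.8% and 16.3%, and the E2F letters TTTCCCGC or TTTGGCGC were in 14% of them, against 1.3% of all promoters. Among promoters of genes tested, CCAAT was in 35%, TTTGAA in 11% and the E2F letters in 2.23%. Among those of all genes called lower the shares were 32.4%, 9.88% and 2.39%, so the letters did not mark the falling genes as a group.

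Of 35 phagocytic and lipid-associated macrophage genes 13 fell and 3 rose, with a median of -1.19 (-0.92 without D4 replicate 1, with 16 lower), whereas 5 fell and 1 rose with the shared spread. *Trem2*, a lipid-sensing receptor, was at 274, 169 and 112 TPM on D4 and 82.9, 46.4 and 38.1 TPM on D7 (log2 difference -1.70, SE 0.38, adjusted p = 0.0375). *Apoe*, the lipid carrier and the gene with the largest loss of TPM, was at 13239, 9259 and 7915 TPM on D4 and 4395, 3549.5 and 3221 TPM on D7 (log2 difference -1.42, SE 0.28, adjusted p = 0.0319). The order of the D4 libraries, with replicate 1 highest and replicate 3 lowest, was the same in both genes. *Lgals3*, *Cd68*, *Tyrobp*, *Ctsb*, *Ctsd* and *Grn* also fell, by 2.12, 1.68, 1.55, 1.39, 1.23 and 1.27 on the log2 scale. The 3 that rose, *Cd36* (0.65), *Lpl* (0.85) and *Fabp4* (0.89), also serve fat uptake in endothelium, muscle and adipocytes. *Cd36* and *Lpl* are also counted above with fatty acid oxidation, and *Fabp4* below with the adipocyte genes. Of 26 resident macrophage genes 6 fell and 1 rose (median -0.55, or -0.41 without D4 replicate 1), and *Csf1r*, the receptor of macrophage colony-stimulating factor, was at 231, 122 and 97 TPM on D4 and 56.9, 45.2 and 44.3 TPM on D7 (log2 difference -1.51, SE 0.31, adjusted p = 0.0333). The mannose receptor gene *Mrc1* was at 67, 34.5 and 21.5 TPM on D4 and 20.9, 20.4 and 21 TPM on D7 (log2 difference -0.80, adjusted p = 0.148), and the D7 libraries lay within 1 TPM of each other just under the lowest D4 library. Among these genes *Trem2*, *Apoe*, *Lgals3*, *Cd68*, *Tyrobp* and *Grn* lost their calls with the shared spread (adjusted p from 0.0535 to 0.128).

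Genes of recruited monocytes and inflammation had a median of -1.17 with 4 of 29 lower (13.8%, beside 11.0% of all genes) and 0 higher, and without D4 replicate 1 the median was -0.61 with 9 lower. *Il1b*, interleukin 1 beta, was at 28.2, 6.35 and 5.98 TPM on D4 and 0.58, 2.78 and 0.91 TPM on D7 (log2 difference -2.35, SE 0.59, adjusted p = 0.0431), and its call was lost after median-of-ratios scaling (adjusted p = 0.052). The others that fell were *Chil3* (-1.90), *Ifitm6* (-1.53) and *Osm* (-1.01). Of 8 neutrophil genes (median -1.28, or -0.40 without D4 replicate 1) 1 fell (12.5%), *Csf3r*, the receptor of granulocyte colony-stimulating factor (log2 difference -1.72, adjusted p = 0.0396). *S100a8* was at 67.2, 2.83 and 1.4 TPM on D4 and 0.8, 7.18 and 0.18 TPM on D7 (log2 difference -1.72, adjusted p = 0.349), high in 1 D4 library. Of 22 complement genes 6 fell and 2 rose (median -0.80, or -0.48 without D4 replicate 1). *C1qa*, a chain of the first component, was at 869.9, 503 and 405 TPM on D4 and 239.9, 197 and 215 TPM on D7 (log2 difference -1.37, SE 0.28, adjusted p = 0.0333), and *C1qb* and *C1qc* fell with it. The 2 that rose, *Cd55* (0.97) and *Cd59a* (0.71), encode inhibitors of complement on the cell surface. Of 24 MHC class II and dendritic genes 4 fell (16.7%) and 0 rose (median -0.60, or -0.40 without D4 replicate 1). Those that fell included *Irf8* (log2 difference -1.35, adjusted p = 0.0322) and the peptide-loading gene *H2-DMa* (log2 difference -1.07, adjusted p = 0.0253). Of 37 interferon-stimulated genes 12 fell and 0 rose (median -0.60, or -0.39 without D4 replicate 1, 9 lower after median-of-ratios scaling), but 0 were called in limma with the shared spread. *Irf7*, which amplifies the interferon response, was at 121, 75.9 and 67 TPM on D4 and 30.8, 35.2 and 31.1 TPM on D7 (log2 difference -1.37, SE 0.23, adjusted p = 0.0265). Its D7 libraries stood close together, and *Mx1* had the same form at 10.5, 6.6 and 6.75 TPM on D4 and 2.68, 2.86 and 2.64 TPM on D7 (log2 difference -1.24, SE 0.21, adjusted p = 0.0267). Of 19 lymphocyte genes that reached the filter, of 40 listed, 1 fell (5.26%) and 0 rose (median -0.45, or -0.14 without D4 replicate 1). After median-of-ratios scaling 0 were called in limma. With the shared spread 2 complement genes were lower and 0 of the neutrophil genes, and *Ifitm6*, *Csf3r*, *C1qa*, *C1qb*, *C1qc*, *H2-DMa*, *Irf7* and *Mx1* were not called (adjusted p from 0.061 to 0.104).

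**Figure D3:**
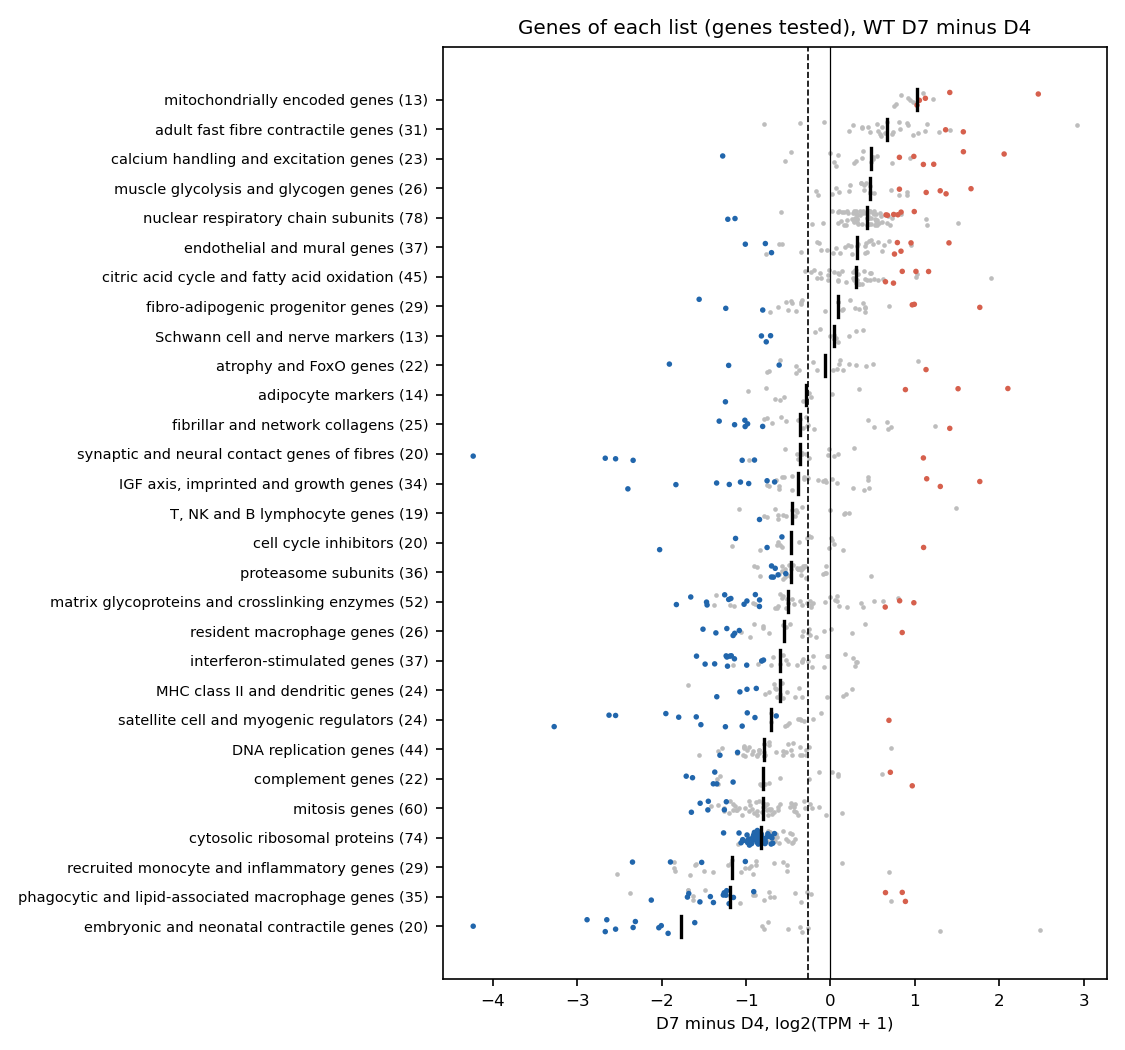
For each gene list with at least 13 genes tested, points are the D7 minus D4 differences of its genes in WT muscle, on the log2(TPM + 1) scale. Points are coloured where called, with a bar at the list's median and a line at the median of all genes, -0.26. The embryonic contractile list has the lowest median, -1.77, and the mitochondrially encoded genes the highest, 1.03.

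Matrix genes passed the test in both directions. Of 25 collagen genes 6 fell and 1 rose (median -0.36, or -0.41 without D4 replicate 1), whereas after median-of-ratios scaling 3 were called lower and 4 higher, and with the shared spread 0 lower and 3 higher in limma, so the balance of collagens depended on the fit. *Col1a1*, the main fibrillar collagen, was at 2787, 2338 and 3039 TPM on D4 and 1836, 1282 and 1090.3 TPM on D7 (log2 difference -0.98, SE 0.25, adjusted p = 0.0435), and its call was lost after that scaling (adjusted p = 0.0883). *Col5a1*, which nucleates fibrils, was at 469, 369 and 455 TPM on D4 and 261, 139 and 138 TPM on D7 (log2 difference -1.32, SE 0.27, adjusted p = 0.0331). *Col6a6*, a chain of the collagen VI network, was at 3.3, 3.52 and 2.83 TPM on D4 and 10.3, 10.5 and 9.8 TPM on D7 and rose (log2 difference 1.41, SE 0.16, adjusted p = 0.0185). Of 52 matrix glycoproteins and crosslinking enzymes 12 fell and 3 rose (median -0.51, or -0.49 without D4 replicate 1), or 6 and 3 after median-of-ratios scaling and 2 and 1 with the shared spread. *Bgn*, biglycan, was at 1359.6, 1353 and 1484 TPM on D4 and 609, 469.9 and 454 TPM on D7 (log2 difference -1.46, SE 0.18, adjusted p = 0.0238). *Tnc*, tenascin C, a matrix protein of injured tissue, was at 258, 129 and 189.8 TPM on D4 and 109, 41.7 and 29.5 TPM on D7 (log2 difference -1.83, SE 0.47, adjusted p = 0.0455), spread widely on D7 and was not called after that scaling (adjusted p = 0.0586). *Cthrc1*, *Loxl3* and *Eln* fell by 1.66, 1.47 and 1.21. The members that rose were *Timp3* (0.99), *Lum* (0.82) and *Dcn* (0.65), an inhibitor of metalloproteinases and 2 small proteoglycans. *Col1a1*, *Col5a1*, *Bgn*, *Tnc*, *Cthrc1*, *Loxl3*, *Lum* and *Dcn* were not called with the shared spread (adjusted p from 0.0579 to 0.225).

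Among 29 fibro-adipogenic progenitor genes 3 fell (10.3%, beside 11.0% of all genes) and 3 rose (10.3%, beside 2.63%). Their median was 0.09 and ranged from -0.06 to 0.18 as single libraries were left out. *Acta2*, smooth muscle actin, was at 832, 402 and 516 TPM on D4 and 276, 153 and 159 TPM on D7 (log2 difference -1.56, SE 0.33, adjusted p = 0.0339), and *Adam12*, a metalloproteinase of activated progenitors, fell by 1.24. *Dlk1*, an imprinted inhibitor of adipogenesis, was at 72.5, 44.1 and 24.6 TPM on D4 and 182, 152 and 119 TPM on D7 and rose (log2 difference 1.77, SE 0.37, adjusted p = 0.0336). *Pdgfra*, the receptor that marks these cells, was at 31.5, 28.1 and 30.9 TPM on D4 and 23.6, 22.1 and 24.6 TPM on D7 (log2 difference -0.35, adjusted p = 0.103). Of 37 endothelial and mural genes 5 rose (13.5%) and 3 fell (8.11%), with a median of 0.32 (0.35 without D4 replicate 1). After median-of-ratios scaling 10 were higher and 1 lower. *Rgs5*, a pericyte gene, was at 50, 59.2 and 41.8 TPM on D4 and 114, 136 and 154 TPM on D7 (log2 difference 1.40, SE 0.18, adjusted p = 0.0241). The endothelial transcription factors *Erg* (0.95), *Sox17* (0.84) and *Sox18* (0.76) and the guidance receptor *Robo4* (0.79) rose. The pericyte receptor *Pdgfrb* fell by 0.70 and was not called after that scaling (adjusted p = 0.146). The shared spread called 1 progenitor gene lower and 2 higher, and *Adam12*, *Dlk1*, *Sox18* and *Pdgfrb* lost their calls (adjusted p from 0.0612 to 0.204).

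Most ribosomal protein genes fell. Of 74 cytosolic ribosomal protein genes 46 fell and 0 rose, all 74 were negative and the median was -0.82 (-0.65 without D4 replicate 1), and 24 were called lower after median-of-ratios scaling. *Rpl3* was at 1244, 763 and 669 TPM on D4 and 428, 336 and 315 TPM on D7 (log2 difference -1.27, SE 0.26, adjusted p = 0.0336), the largest difference of the list, and *Rps14* at 2432, 2004 and 2303 TPM on D4 and 1442, 1379 and 1419 TPM on D7 (log2 difference -0.66, SE 0.18, adjusted p = 0.049). The range within the list was narrow, from -1.27 to -0.42. Of 36 proteasome subunits 6 fell (16.7%, beside 11.0% of all genes) and 0 rose (median -0.47, or -0.41 without D4 replicate 1). After median-of-ratios scaling 0 of these subunits were called in limma, and 15 fell with the shared spread. In the IGF, imprinted and growth list 8 of 34 fell and 3 rose (median -0.38, or -0.35 without D4 replicate 1), or 2 and 1 with the shared spread. *Igf2*, a growth factor of developing muscle, was at 735, 802 and 583 TPM on D4 and 379.8, 276 and 197 TPM on D7 (log2 difference -1.35, SE 0.26, adjusted p = 0.0305). *Ltbp2*, a matrix protein of the microfibril, fell by 2.40, and *Tgfb1* and *Tgfb3* by 1.07 and 0.97. *Mstn*, myostatin, which restrains muscle growth, was at 3.82, 3.87 and 2.64 TPM on D4 and 8.6, 9.79 and 11.4 TPM on D7 and rose (log2 difference 1.30, SE 0.20, adjusted p = 0.0246). Of 22 atrophy and FoxO genes 3 fell (13.6%, beside 11.0% of all genes) and 1 rose (4.55%, beside 2.63%). Their median of -0.07 became -0.15 without D4 replicate 1 and 0.18 after median-of-ratios scaling. The metallothioneins *Mt1* (-1.21) and *Mt2* (-1.91) fell and the glucocorticoid-responsive *Klf15* rose (log2 difference 1.13, adjusted p = 0.0427). *Rpl3*, *Igf2*, *Tgfb1*, *Tgfb3*, *Mstn* and *Klf15* were not called with the shared spread (adjusted p from 0.0565 to 0.148).

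Markers of other tissues were few or uneven. Of 20 adipocyte genes 14 were tested, 3 rose, *Thrsp* (2.10), *Car3* (1.51) and *Fabp4* (0.89), and 1 fell, *Cebpa* (-1.24). Of the 14, 9 were negative (median -0.29, or -0.13 without D4 replicate 1), while their summed level was from 879 to 1277 TPM on D4 and from 1951 to 2367 on D7. *Car3* is also a muscle gene. Schwann cell genes had 3 of 13 lower and 0 higher (median 0.04, or 0.02 without D4 replicate 1), among them the myelin regulator *Egr2* (log2 difference -0.82, adjusted p = 0.0342), or 1 lower with the shared spread, which did not call *Egr2* (adjusted p = 0.0579). The tested epidermis (6), erythrocyte (5) and acinar pancreas (2) genes had 0 calls in limma, and the acinar sum was at most 25.4 TPM in any of the 6 libraries.

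Among the genes with the widest differences outside these lists, *Gal*, a neuropeptide, fell from 88.4, 13.9 and 8.48 TPM to 1.92, 0.43 and 0.71 TPM (log2 difference -3.60, SE 0.77, adjusted p = 0.0349). *Ptgds*, prostaglandin D synthase, was at 16.4, 12.3 and 9.36 TPM on D4 and 1, 0.8 and 0.76 TPM on D7 (log2 difference -2.85, SE 0.22, adjusted p = 0.00563). Its D7 libraries were close together, as were those of *Smim22*, at 14.9, 6.31 and 9.86 TPM on D4 and 0.5, 0.43 and 0.39 TPM on D7 (log2 difference -2.91, SE 0.29, adjusted p = 0.0102). *Apoc2*, *Tceal3* and *R3hdml* fell by 2.77, 2.69 and 2.80, where the call of *R3hdml* was lost after median-of-ratios scaling (adjusted p = 0.0517). On the rising side, *Klhl33* was at 3.22, 5.26 and 6.43 TPM on D4 and 26.8, 27.3 and 27.8 TPM on D7 (log2 difference 2.28, SE 0.22, adjusted p = 0.0102). *Thrsp*, a regulator of lipid synthesis, was at 12.2, 24.8 and 16.2 TPM on D4 and 71.2, 87.2 and 72 TPM on D7 (log2 difference 2.10, SE 0.25, adjusted p = 0.0216). *BC023105*, *Mlf1*, *Tlcd3b*, *Kera* and *Krt18* rose by 2.64, 1.94, 1.92, 2.01 and 1.99. An entry named *Ddit3* (ENSMUSG00000116429) had the widest rise, but was listed at 0 in 2 of the 3 D4 libraries and at 102, 10.7 and 177 TPM on D7, while the other entry of that name (ENSMUSG00000025408) was at 22.4, 23 and 19.6 TPM on D4 and 20.5, 20.3 and 21.9 TPM on D7. By TPM, the largest losses after *Apoe* were those of *Tmsb10*, an actin-sequestering protein, at 6499, 3326 and 3508 TPM on D4 and 1033, 703 and 569.9 TPM on D7 (log2 difference -2.50, SE 0.33, adjusted p = 0.0241), then *Eef1a1*, *Rplp1*, *Rpl41* and *Lgals1*, with log2 differences of -1.09, -0.88, -0.97 and -1.58, where *Eef1a1* was not called with the shared spread (adjusted p = 0.131). The largest gains were in *mt-Atp8*, *Gm28437*, *Mylpf*, *mt-Co1*, *Myl1* and *Gm28661*, of which the predicted gene *Gm28437* passed the test (log2 difference 1.37, adjusted p = 0.0418) and *mt-Atp8* did not (log2 difference 1.10, adjusted p = 0.063). Whether *Gm28437* and *Gm28661* took reads of mitochondrial genes was not tested, and they were not counted in the mitochondrial share given above.

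Of 285 annotated pathways with at least 20 genes tested, the highest medians were those of the citrate cycle (0.33, with 3 of 29 genes higher and 0 lower) and oxidative phosphorylation (0.33, with 10 higher and 8 lower of 121), followed by Parkinson disease, cardiac muscle contraction and retrograde endocannabinoid signaling, and pathways share genes. Without D4 replicate 1 the first 2 medians were 0.15 and 0.16, below the 0.18 of Parkinson disease. The lowest were Staphylococcus aureus infection (-0.87, 14 of 36 lower and 1 higher), viral protein interaction with cytokines (-0.71, 8 of 53 lower), the intestinal immune network for IgA (-0.69, 8 of 26 lower), ribosome (-0.67, 56 of 132 lower) and malaria (-0.66, 9 of 39 lower and 1 higher), and without that library these 5 medians were -0.66, -0.42, -0.47, -0.53 and -0.48.

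The place of this step in the course of repair was read from the WT D1 and D14 libraries of the same table. Embryonic myosin *Myh3* was at 0.28 ± 0.108 TPM on D1 and 463 ± 63.5 TPM on D4, then 95.5 ± 30 TPM on D7 and 1.62 ± 1.65 TPM on D14 (SD, n = 3 each), so it was low on D1 and D14 and D7 lay on its descent from D4. *Chrng* was at 0.88 ± 0.775, 88.8 ± 47.9, 5.13 ± 6.19 and 0.24 ± 0.263 TPM on the same days. *Pvalb* had the opposite order, from 7744 ± 3286 TPM on D1 to 2489 ± 827 on D4, 9958 ± 995 on D7 and 11278 ± 1980.1 on D14, and the D7 mean lay within 1 SD of that of D14. Some genes were highest on D7 alone. *Dlk1* was at 5.06 ± 2.39, 47.1 ± 24.1, 151 ± 31.4 and 2.17 ± 0.777 TPM, *Col6a6* at 1.91 ± 1.66, 3.22 ± 0.352, 10.2 ± 0.365 and 3.83 ± 1.36, and *Thrsp* at 19.9 ± 8.4, 17.7 ± 6.46, 76.8 ± 9.02 and 26.2 ± 3.54. These levels are a description, without a test across days.

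**Figure D4:**
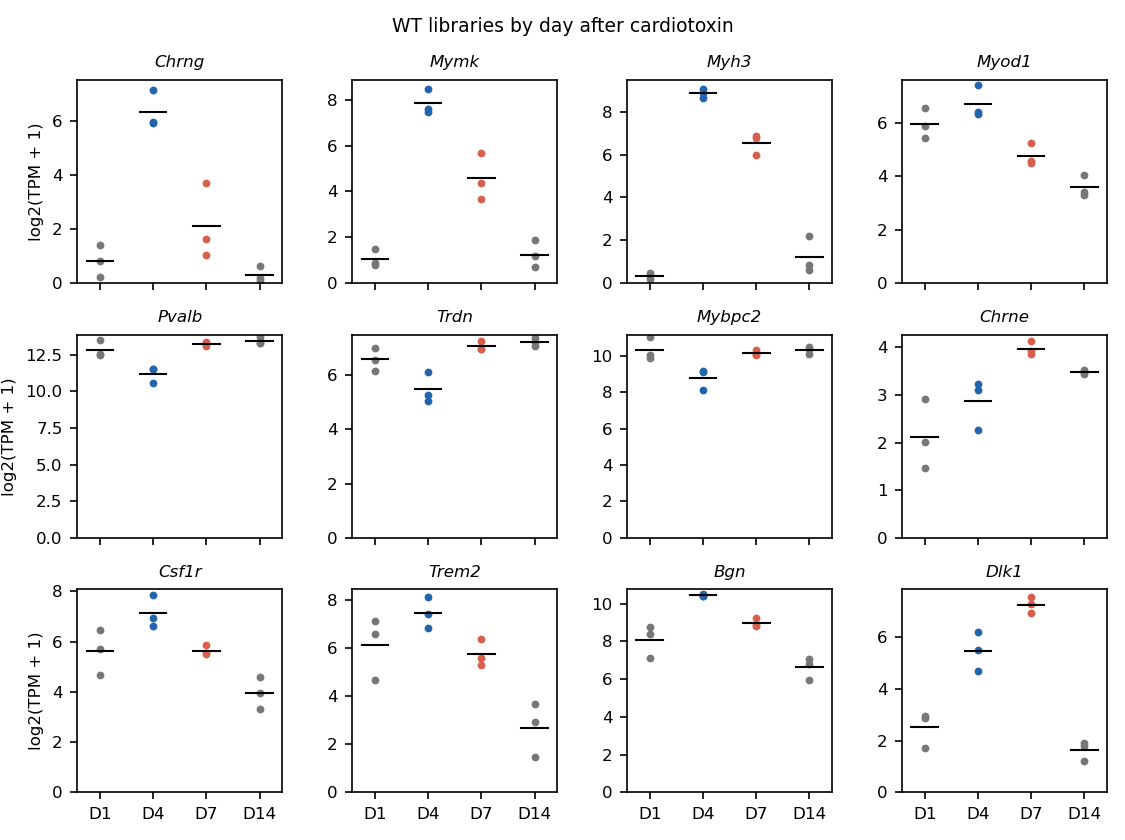
WT libraries of D1, D4, D7 and D14 as points on the log2(TPM + 1) scale for 12 genes, each panel with its own axis from 0 and a bar at the mean of the 3 libraries. *Chrng*, *Mymk* and *Myh3* peak on D4 and *Dlk1* on D7, while *Pvalb* is lowest on D4.

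The same step in KO muscle was set beside that of WT. *Gsdme*, the gene targeted in the KO mice and encoding the pore-forming gasdermin E, was at 3.02, 2.67 and 2.63 TPM on D4 and 2.51, 1.8 and 2.15 TPM on D7 in WT (log2 difference -0.26, adjusted p = 0.305), and at 1.36, 1 and 1.64 TPM on D4 and 1.37, 1.01 and 0.95 TPM on D7 in KO. All 6 KO libraries were below the 6 WT libraries. In KO, 0 genes were called by limma (0% of those tested), with 495 at an unadjusted p under 0.05. KO D4 replicate 2 stood apart, with 3.58 TPM of *Myh3* where the other 2 had 259 and 268 TPM, and without it 12 genes rose and 179 fell. KO D7 replicate 2 was low in *Myh3* as well, at 7.48 TPM against 106 and 72.6 TPM. Of the genes called in WT, 354 of the 375 higher were positive and 1543 of the 1566 lower were negative in KO, which became 364 and 1556 without KO D4 replicate 2. The median over all genes was -0.16 in KO, or -0.32 without that library. Most genes were thus negative in KO whether or not they were called in WT. Across all genes Pearson's r of both steps was 0.70, or 0.78 without that library, a description over genes that are not independent replicates. *Chrng* was at 45.2, 1.18 and 53.2 TPM on D4 and 2.81, 1.09 and 1.83 TPM on D7 in KO, and *Pvalb* at 2280.0, 10517 and 6583 and 11024, 20752 and 13823. Leaving out KO D4 replicate 2, the KO log2 difference was -4.15 for *Chrng* beside -4.23 in WT, -2.30 for *Trem2* beside -1.70, and 0.68 for *Dlk1* beside 1.77. KO D7 replicate 2, low in *Myh3* as well, was kept in that fit, so these differences depend on the library left out. With all KO libraries, *Chrng* overlapped between the days. The KO median of the embryonic contractile list was -0.69 with all libraries and -1.37 without KO D4 replicate 2, beside -1.77 in WT.

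The difference between both steps was tested as an interaction, in which 0 genes were called by limma (0% of those tested), with 276 at an unadjusted p under 0.05 and a lowest adjusted p of 0.406. The 3 genes of lowest p, none of them called, were *1810049J17Rik*, *Gm38182* and *Gm43802*, each lower on D7 in WT and higher in KO by mean. *1810049J17Rik* was listed at 8.44, 5.17 and 6.14 TPM on D4 and 0, 0 and 0 TPM on D7 in WT and at 3.73, 1.74 and 0.24 TPM and 2.92, 3.21 and 4.37 TPM in KO. Without KO D4 replicate 1, 2 or 3 the interaction called 1 lower, 1 higher and 3 lower genes. A p that misses the threshold does not show that the genotypes took the step alike.

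**Figure D5:**
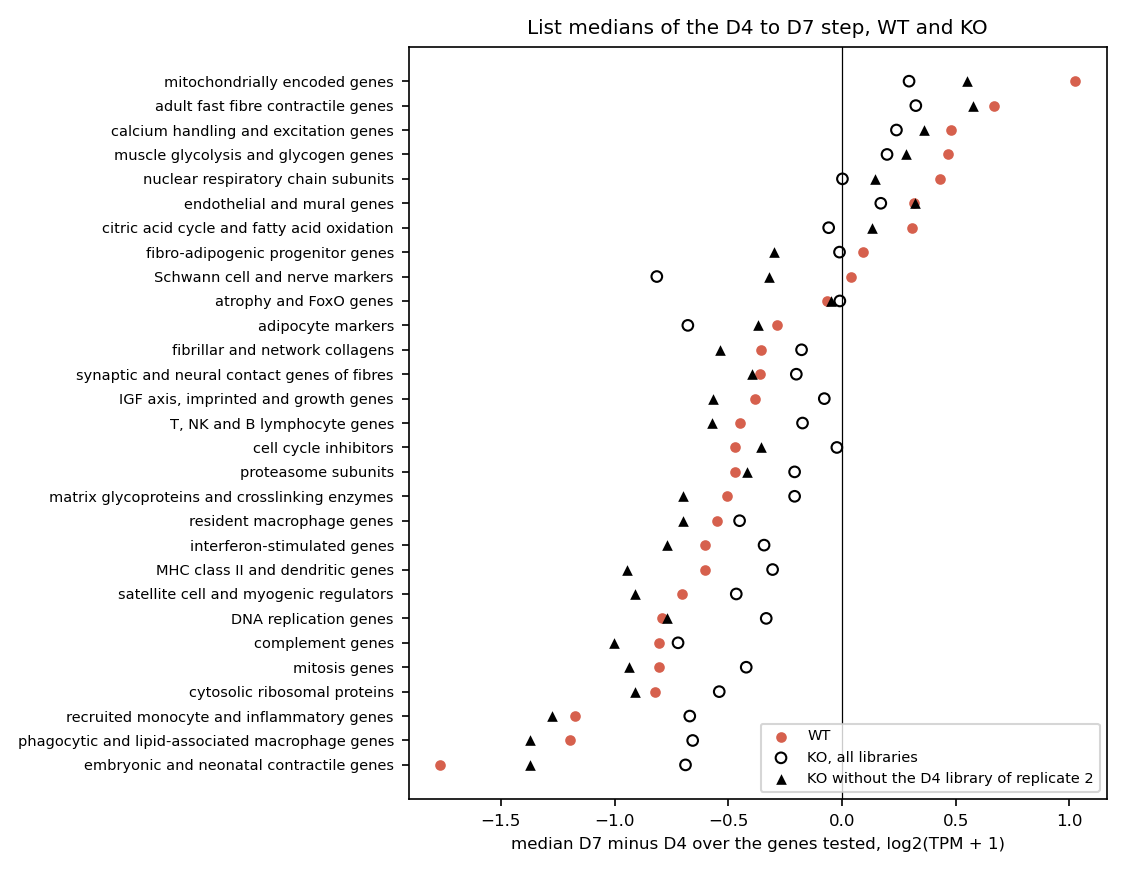
Median D7 minus D4 difference of each gene list with at least 13 genes tested, on the log2(TPM + 1) scale. Filled circles are WT, open circles KO with all libraries, and triangles KO without the D4 library of replicate 2. The embryonic contractile list is lowest in WT at -1.77, and the KO medians of the macrophage and embryonic lists move further from 0 when that library is left out.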

How the data were processed

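RNA of injured muscle had been extracted with TRIzol, and the libraries, from a SMARTER mRNA kit, had been read as pairs on an Illumina instrument. The authors deposited TPM per gene for 24 injured libraries, aligned to mm10 per the submitters' processing notes, with the counting tool not given in the sources used here. As TPM do not keep read numbers, sequencing depth is unknown here and counting intervals were not computed. Group means in the deposited table were not used, and 0 columns of single samples were left out. Differences are on the log2(TPM + 1) scale, fitted with limma 3.58.1 in R 4.3.3 with a variance trend, WT D4 against WT D7 (n = 3 each), and Benjamini-Hochberg adjusted over 14275 genes (threshold 0.05). Folds of low genes are understated by the added 1. In data simulated with the means and spreads of these genes, 100 changes of each size were set. Of those, 46% of changes of 1 and 84% of changes of 2 on the log2 scale were recovered, with 7 unchanged genes called. The simulated noise was independent between genes, with no library standing apart and no shift in composition, and low genes were left unchanged. These rates may therefore not hold for the real libraries. Named genes were the 12 widest called rises and falls without overlap and with a mean of at least 10 TPM, the 6 largest gains and losses of TPM, list genes beside their list's count, the 3 lowest p of the interaction, and *Gsdme*. The members and lists were chosen with earlier results of these data known, so lists are described by counts and medians without a test. Replicate numbers were not taken as pairs of WT libraries, and whether they stand for shared handling was not tested. Promoters are from RefSeq (GRCm38.p6), for 27025 genes.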

Additional observations from a re-analysis of the deposited data

How the results depend on the processing

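Depth cannot be weighed in TPM, and 3 libraries a day set the precision. Against 375 genes higher and 1566 lower, the counts were 871 and 888 with quantile normalization, 894 and 575 after removing the 50 most abundant genes, 879 and 972 with median-of-ratios scaling, 2209 and 7539 with library quality weights, and 0 and 0 with no filter, where 1348 were higher and 4802 lower at an unadjusted p under 0.05. Leaving out 1 library gave from 0 to 535 higher and from 0 to 2046 lower, and from 101 to 451 and from 131 to 1390 with the spread shared by 8 groups, added after seeing the data (101 and 131 without D4 replicate 1, 111 and 167 without D7 replicate 2, 106 and 132 without D7 replicate 3). Deviations of same-numbered libraries correlated at 0.24, 0.03 and 0.16 in WT, so the WT numbers were not taken as pairs, and D4 replicate 2 correlated best with D7 replicate 3. In KO they correlated at 0.36, 0.51 and 0.18, all over 0.1, but D4 replicate 1 correlated best with D7 replicate 3 (0.37). With the replicate block the WT counts were 665 and 3716, and the KO step and the interaction stayed at 0 in limma. The KO step gave from 0 to 12 higher and from 0 to 179 lower as 1 library was left out, and the interaction from 0 to 1 and from 0 to 3, or 649 and 1055 with quality weights. The cause of these moves was not tested. Pseudocounts of 0.1 and 0.5, no variance trend, stricter filters and a spread shared by 8 groups left the WT counts within 1.5 times, although that shared spread kept 304 and 991 of the called genes.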
